A study of Mus musculus with 6 samples.

Results

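The guanylate-binding protein genes Gbp2, Gbp3, Gbp4, Gbp5, Gbp6, Gbp7, Gbp8 and Gbp9 were followed across the cell classes of mouse brain with Foxr2 overexpression. They were taken by gene symbol and are 8 of the 32298 genes counted. The same gene list holds 10 Gbp symbols, the other ones being Gbp2b and Gbp10. The family was selected on its RNA levels in vector-positive and vector-negative nuclei and across the cell classes of these libraries. Its promoter peaks were named in the same selection. These values are therefore given as a description and carry no test.

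Guanylate-binding proteins are large GTPases of cell-autonomous immunity that assemble on the membranes around intracellular pathogens. Their genes are classic targets of interferon gamma, whose response includes the transcription factor IRF1. They work beside the immunity-related GTPases and the inflammasome caspases, and their recruitment to membranes uses the conjugation genes of autophagy. In brain they are low at rest and are induced by interferon in microglia and astrocytes.

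All animals were C57BL/6J mice in which Foxr2 was overexpressed from a piggyBac vector with a CAG promoter. This vector was delivered by in utero electroporation into the embryonic ganglionic eminence, together with a vector for Akaluc. Both vectors also carried GFP. In Foxr2 p53LOF samples a Cas9 vector with a Trp53 guide RNA was added, which gives p53 loss of function, while in the Foxr2 alone samples p53 was not targeted. The labels call both kinds brain tumor, whereas the study speaks of the Foxr2 alone samples as nonproliferative lesions. The electroporation reaches part of the brain cells, so each sample holds transduced and host nuclei, and the labels give no age at collection. RNA and open chromatin were measured in the same nuclei (10x Multiome) in 3 libraries with 6 records, of which 1 Foxr2 p53LOF and 1 Foxr2 alone library (replicate 1) entered with counts, and Foxr2 alone replicate 2 entered with its peak list only, its counts being not analysed here.

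After filtering, 8359 Foxr2 p53LOF nuclei with a median of 5527 unique molecular identifiers (UMIs) and 8316 Foxr2 alone nuclei with a median of 3637 UMIs were kept. Clusters were named from marker genes as neuron-like, oligodendrocyte precursor (OPC)-like, committed precursor (COP)-like, oligodendrocyte-like, astrocyte-like or immune-like. The 2 libraries shared 140 barcodes, of which 94 were kept in both (1.12% of kept Foxr2 p53LOF nuclei). Foxr2 RNA was counted at 42.6 UMIs per 1000000 UMIs (CPM) with p53 loss of function and 3.61 without. Trp53 RNA stood at 33.6 and 12.9 CPM, and RNA level does not check a Cas9-made loss of function. With 1 library per genotype, a difference between genotypes is a difference between those libraries, and all intervals are 95% intervals that cover counting error only.

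The members lie in gene clusters on chromosomes 3 and 5 of the mm10 genome. Gbp5, Gbp7, Gbp3 and Gbp2 start at positions 142496900, 142530342, 142560052 and 142620602 of chromosome 3, all on the plus strand. Gbp8, Gbp9, Gbp4 and Gbp6 are on chromosome 5, where Gbp9 lies inside the 125391-base span of Gbp8 and Gbp4 overlaps it, all on the same strand. The split of reads between those members is therefore uncertain. Gbp6 also shared 31.4% of the 90-base windows of its gene span, introns included, with another Gbp gene, against at most 1.35% for the members on chromosome 3. RefSeq promoters were matched for 4 members, those of chromosome 3, and are shown because peaks of open chromatin lie over them. Each line gives a RefSeq promoter of build GRCm38.p6, from 250 bases before to 50 bases after the start on the plus strand, with capitals marking an interferon-stimulated response element, searched as GAAA followed by GAAA with 2 bases of any kind between them, and the gamma-activated site TTCNNNGAA, both searched on either strand.
Gbp5: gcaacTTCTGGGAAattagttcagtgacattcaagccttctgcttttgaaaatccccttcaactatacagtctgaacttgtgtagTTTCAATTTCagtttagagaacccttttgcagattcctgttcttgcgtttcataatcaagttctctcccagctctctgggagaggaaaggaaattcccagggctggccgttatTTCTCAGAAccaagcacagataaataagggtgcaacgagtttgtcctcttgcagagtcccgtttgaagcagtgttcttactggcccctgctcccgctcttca
Gbp7: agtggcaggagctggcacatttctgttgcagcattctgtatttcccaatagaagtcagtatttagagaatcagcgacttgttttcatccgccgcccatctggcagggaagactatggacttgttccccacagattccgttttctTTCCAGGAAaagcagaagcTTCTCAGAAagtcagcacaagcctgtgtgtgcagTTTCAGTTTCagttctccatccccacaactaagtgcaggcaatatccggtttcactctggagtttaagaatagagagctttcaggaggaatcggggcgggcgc
Gbp3: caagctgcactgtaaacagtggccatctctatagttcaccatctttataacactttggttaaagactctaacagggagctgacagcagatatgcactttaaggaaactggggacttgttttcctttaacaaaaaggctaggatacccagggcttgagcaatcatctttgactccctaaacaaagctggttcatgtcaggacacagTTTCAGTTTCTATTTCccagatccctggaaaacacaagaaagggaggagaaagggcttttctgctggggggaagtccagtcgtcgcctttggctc
Gbp2: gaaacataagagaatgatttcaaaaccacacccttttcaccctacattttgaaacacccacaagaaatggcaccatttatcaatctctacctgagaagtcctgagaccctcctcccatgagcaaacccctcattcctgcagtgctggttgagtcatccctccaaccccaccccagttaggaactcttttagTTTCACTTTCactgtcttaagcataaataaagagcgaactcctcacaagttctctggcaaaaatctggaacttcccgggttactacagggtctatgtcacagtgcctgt
The windows are Gbp5 at chr3:142496684-142496983, Gbp7 at chr3:142530086-142530385, Gbp3 at chr3:142559794-142560093 and Gbp2 at chr3:142620413-142620712. The response element was present in the printed window of each of these 4 members, and always on the reverse strand. It began 59 bases before the RefSeq start in Gbp2, 45 and 39 bases before it in Gbp3, 165 bases before it in Gbp5 and 53 bases before it in Gbp7. Gbp5 and Gbp7 also held 2 gamma-activated sites each, and no copy overlapped the other motif. Over 32851 mouse promoters of the same length, 3.44% held the response element, 8.30% the gamma-activated site and 0.454% held both. Gbp2b, a neighbour on chromosome 3 whose RNA stayed at or below 2.40 CPM in every class, also held the response element, 137 bases before its start. Another RefSeq promoter of Gbp3, at chr3:142560106-142560405, had neither motif. These letter matches are a description of the sequence.

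In the Foxr2 p53LOF library the members were read in every named class, with astrocyte-like nuclei at the top. Of the astrocyte-like nuclei 30.7% were vector-positive, and Hmga2 and Col4a6 led the genes of their cluster. Their summed OPC markers, at 4998 CPM, stood above their summed astrocyte markers, at 3335 CPM. The class name is a likeness by markers, and the share of host astrocytes in it was not tested. Of the COP-like nuclei 26.9% were vector-positive, and Hmga2 and Tnc led the genes of their cluster. Their summed oligodendrocyte markers, at 4704 CPM, stood above their summed COP markers, at 3300 CPM, so that name too is a likeness. Summed over the 8 members, RNA reached 4196 CPM [4156, 4236] in 1095 astrocyte-like nuclei, 1907 CPM in 1288 COP-like nuclei, 1322 CPM in 1807 immune-like nuclei, 965 CPM in 1525 oligodendrocyte-like nuclei, 494 CPM in 93 OPC-like nuclei and 151 CPM in 2002 neuron-like nuclei. Neighbours in this order had counting intervals that did not overlap. These leave out variation between nuclei, so this is no test of the order. Per nucleus the sum was 38.5 UMIs in astrocyte-like, 17.3 in COP-like, 5.48 in immune-like, 2.58 in oligodendrocyte-like, 1.74 in neuron-like and 1.69 in OPC-like nuclei. Neuron-like nuclei stood last by CPM, and by UMIs per nucleus they could not be told from OPC-like nuclei. When doublets were kept, a cluster of 1318 nuclei (3870 CPM) that was also led by Col4a6 and Hmga2 stayed unnamed. Its immune markers had a median log2 excess of 4.10 over the lower quartile of the clusters, and its astrocyte markers 3.89. The 5 nuclei then named astrocyte-like gave 317 CPM. How many nuclei that cluster shared with the astrocyte-like class was not counted.

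Each of the 8 members was highest in the astrocyte-like cluster. Gbp2, whose protein is among the best studied of the family for its action on bacterial and parasite compartments, ran from 76.3 CPM in neuron-like nuclei over 205 in OPC-like, 252 in oligodendrocyte-like, 349 in immune-like and 617 in COP-like to 1144 CPM in astrocyte-like nuclei. Gbp4 had a steeper course, from 9.94 CPM in neuron-like and 37.8 in OPC-like to 144 in oligodendrocyte-like, 208 in immune-like, 404 in COP-like and 789 CPM in astrocyte-like nuclei. Gbp6 ran from 20.2 CPM in neuron-like nuclei to 593 CPM in astrocyte-like nuclei, with 44.1 in OPC-like, 96.2 in oligodendrocyte-like, 142 in immune-like and 219 in COP-like nuclei. COP-like nuclei therefore stood above immune-like nuclei for these 3 members.

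Gbp3 and Gbp7 were the flattest across the glial classes. Gbp3 stood at 183 CPM in oligodendrocyte-like, 195 in COP-like and 313 in astrocyte-like nuclei, with 126 in immune-like, 75.5 in OPC-like and 13.8 in neuron-like nuclei. Gbp7 stood at 178 CPM in oligodendrocyte-like, 203 in COP-like and 381 in astrocyte-like nuclei, with 167 in immune-like, 123 in OPC-like and 20.8 in neuron-like nuclei. Oligodendrocyte-like nuclei stood above immune-like nuclei for Gbp3, overlapped them for Gbp7, and stood below them for the other 6 members.

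Gbp5 and Gbp8 kept another order, with immune-like nuclei above COP-like nuclei. Gbp5, known from macrophages for its part in inflammasome assembly, was read at 279.6 CPM in astrocyte-like, 110 in immune-like, 78.4 in COP-like, 27.7 in oligodendrocyte-like and 3.76 CPM in neuron-like nuclei. In OPC-like nuclei Gbp5 rested on 3 UMIs. Gbp8 was read at 367 CPM in astrocyte-like, 119.7 in immune-like, 71.5 in COP-like, 20.1 in oligodendrocyte-like and 3.07 CPM in neuron-like nuclei. Gbp9 was at 329.9 CPM in astrocyte-like, 119 in COP-like, 100.1 in immune-like, 63.3 in oligodendrocyte-like and 2.98 CPM in neuron-like nuclei. No UMI of Gbp8 or Gbp9 was found in the 93 OPC-like nuclei, which at their depth allows up to 9.44 CPM.

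**Figure D1:**
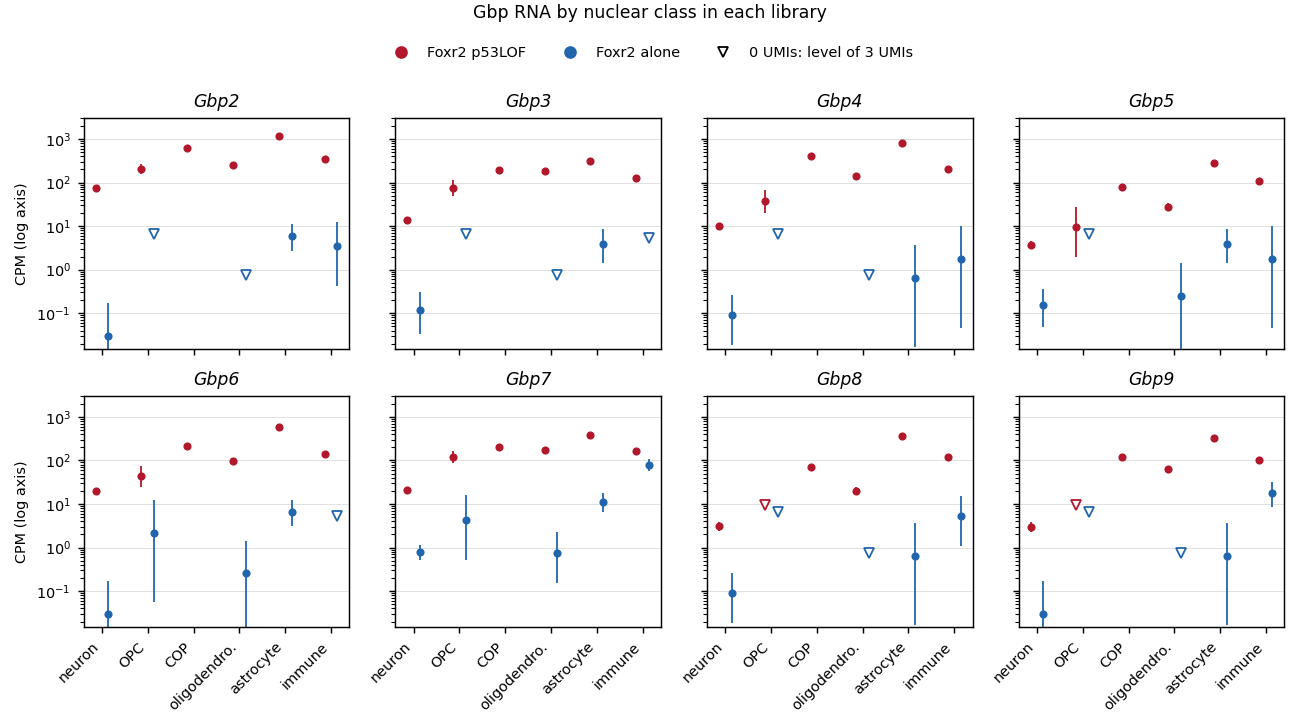
RNA of each member by cell class, as CPM on a log axis with 95% counting intervals, for the Foxr2 p53LOF and the Foxr2 alone library, with open triangles at the level of 3 UMIs where none was found and some lower interval ends below the axis. Every member sits highest in astrocyte-like nuclei of Foxr2 p53LOF (summed 4196 CPM) and at or near zero in most classes of Foxr2 alone (summed 1.27 CPM in oligodendrocyte-like nuclei).

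The makeup of the family signal changed with the class. Gbp2 gave 50.6% of the members' UMIs in neuron-like nuclei and 28.9% in the COP-like, oligodendrocyte-like, OPC-like and astrocyte-like nuclei joined as glia-like. Gbp4 gave 6.59% in neuron-like nuclei and 21.2% in COP-like nuclei. Gbp8 gave 2.03% in neuron-like nuclei and 3.75% in COP-like nuclei. These shares are not corrected for transcript length and are compared between classes only. GFP RNA, which comes from both the Foxr2 and the Akaluc vector, offers another yardstick. GFP itself was read at 577 CPM in astrocyte-like, 719 in COP-like, 241 in immune-like, 187 in oligodendrocyte-like and 75.7 CPM in neuron-like nuclei. For each GFP UMI there were 1.99 UMIs of the members in neuron-like, 2.65 in COP-like, 5.15 in oligodendrocyte-like, 5.49 in immune-like and 7.27 in astrocyte-like nuclei. Per GFP UMI, Gbp8 went from 0.0405 in neuron-like to 0.636 in astrocyte-like nuclei and Gbp4 from 0.131 to 1.37, while Gbp2 went from 1.01 to 1.98. How much of the neuron-like signal is free RNA was not tested.

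**Figure D2:**
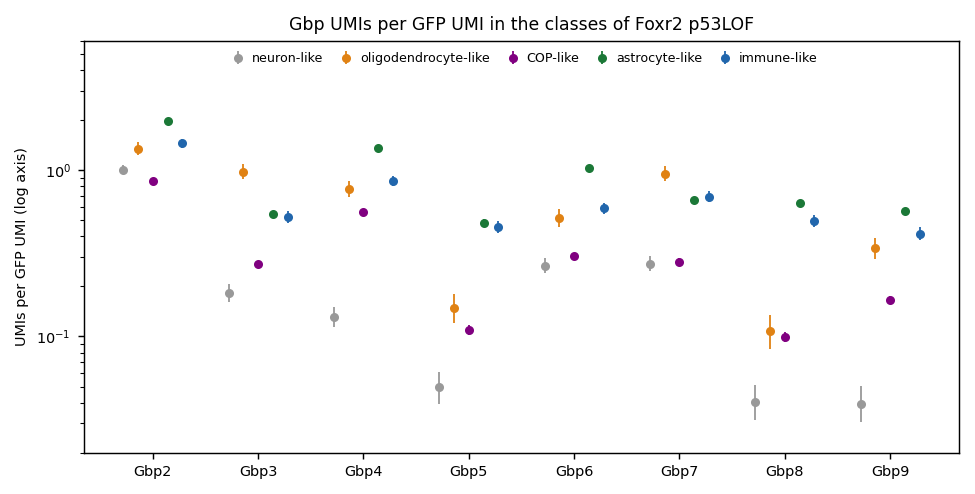
UMIs of each member per GFP UMI in the neuron-like, oligodendrocyte-like, COP-like, astrocyte-like and immune-like classes of Foxr2 p53LOF, with 95% counting intervals. OPC-like nuclei, which had no UMI of Gbp8 or Gbp9, are not shown. The vertical axis is logarithmic, Gbp8 lies between 0.0405 in neuron-like and 0.636 in astrocyte-like nuclei, and Gbp3 lies highest in oligodendrocyte-like nuclei at 0.978.

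Clusters that carried no class name held the members as well. A cluster of 76 nuclei with endothelial, fibroblast and mural markers had a sum of 1798 CPM, whose interval overlapped that of the COP-like cluster. A cluster of 222 nuclei with T and NK markers beside astrocyte markers had a sum of 1350 CPM, overlapping the larger immune-like cluster at 1418 CPM. It also held Foxr2 at 94.5 CPM and GFP at 625 CPM, with 2.16 member UMIs per GFP UMI, and the part of vector-carrying or free RNA in it was not tested. An unnamed cluster of 251 nuclei with neuron and OPC markers stood at 193 CPM. In both immune-like clusters all 7 microglia markers passed, that is, were at least 2-fold above the lower quartile of the clusters. All 7 macrophage markers passed too in the larger one, with a median log2 excess of 4.33, against 4.22 for its microglia markers. The smaller one, with 510 nuclei, had a median of 6.17 for its microglia markers. It stood at 976 CPM, overlapping the oligodendrocyte-like cluster at 965 CPM. At a finer clustering, chosen after the data were seen, 126 astrocyte-like nuclei of which 4.76% were vector-positive had 1341 CPM [1256, 1430], against 4146 CPM in the other astrocyte-like cluster of 1141 nuclei. GFP stood at 675 CPM in the 126 nuclei and 579 CPM in the other cluster, and Foxr2 at 105 and 73.3 CPM. By the same marker rule, 8 of 8 immune markers passed in the 126 nuclei and 6 of 8 in the other cluster. The part of vector-carrying or free RNA in these values was not tested.

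Counted per nucleus after thinning each nucleus to 1000 UMIs, at least 1 member was found in 81.0% of astrocyte-like nuclei [78.5, 83.3], 62.6% of COP-like, 58.2% of immune-like, 46.7% of oligodendrocyte-like, 29.0% of OPC-like and 13.8% of neuron-like nuclei [12.4, 15.4]. Thinning left out at most 81 shallower nuclei of a class. Without thinning the shares were 97.7%, 93.8%, 84.7%, 70.7%, 66.7% and 74.8%. Thinning moved neuron-like nuclei, the deepest on average, the most. At least 4 different members were read together in 29.8% of astrocyte-like nuclei and 9.53% of COP-like nuclei. The same was found in 2.65% of immune-like and 2.58% of oligodendrocyte-like nuclei, and at this thinned depth in none of the OPC-like or neuron-like nuclei, which allows a share of thinned nuclei of up to 3.23% and 0.150%. Without thinning, at least 4 members were read in 78.4% of astrocyte-like, 49.3% of COP-like, 23.5% of immune-like, 11.4% of oligodendrocyte-like, 3.23% of OPC-like and 3.10% of neuron-like nuclei. The mean number of members per thinned nucleus was 2.40 in astrocyte-like, 1.26 in COP-like, 0.928 in immune-like, 0.740 in oligodendrocyte-like and 0.151 in neuron-like nuclei. Several members were thus commonly read in the same astrocyte-like nucleus. No class is known to lack these genes, so the neuron-like share is given as the lowest measured reference.

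**Figure D3:**
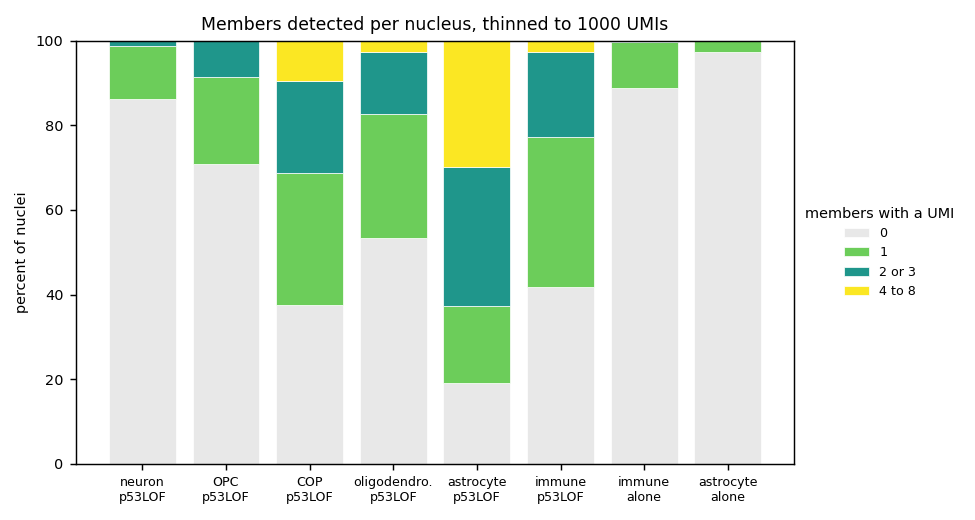
Number of different members with a UMI per nucleus after thinning to 1000 UMIs, as a percent of nuclei in the classes of Foxr2 p53LOF and in the immune-like and astrocyte-like classes of Foxr2 alone. In Foxr2 p53LOF 29.8% of astrocyte-like nuclei carried at least 4 members, and none of Foxr2 alone did.

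Over the 11 clusters of Foxr2 p53LOF with at least 50 nuclei, the members followed one another. Pearson's r between log2(CPM + 1) of 2 members ran over 28 pairs from 0.69 for Gbp7 with Gbp8 to 0.98 for Gbp4 with Gbp6. These points share 1 library, and their depths differ. Among 13812 genes the profile of the summed members was most like those of Tgtp2, F830016B08Rik, Gm4951, Parp3, Iigp1, Sf1, Irf1, Oasl2, Samd9l and Actl6a, with r from 0.98 to 0.96. Tgtp2, Gm4951 and Iigp1 are immunity-related GTPases and Irf1 is a transcription factor of the interferon response. For single members the nearest gene was Cdkn2a for Gbp2 and Irgm1 for Gbp3 (r = 0.99 each). It was Gbp6 for Gbp4 and Gbp4 for Gbp6 (r = 0.98), Dcaf8 for Gbp5 (r = 0.96) and Gbp3 for Gbp7 (r = 0.98). For Gbp8 it was Gbp9 (r = 0.97).

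In the Foxr2 alone library few UMIs of the members were read. All 8 members together gave 171 UMIs in the kept nuclei (4.32 CPM, 0.0206 UMIs per nucleus), against 84119 UMIs (1402 CPM, 10.1 UMIs per nucleus) in Foxr2 p53LOF. In Foxr2 alone the sum was 1.33 CPM in 4244 neuron-like nuclei, 1.27 CPM in 3020 oligodendrocyte-like nuclei and 6.54 CPM in 169 OPC-like nuclei. It was 33.6 CPM [24.99, 44.1] in 428 astrocyte-like nuclei and 109 CPM [83.8, 140] in 423 immune-like nuclei. The order of the classes thus differed from Foxr2 p53LOF, with immune-like nuclei first. Gbp7 and Gbp9 made up most of that signal, with 45 of the 62 immune-like UMIs for Gbp7 (79.3 CPM) and 10 for Gbp9 (17.6 CPM). In the astrocyte-like nuclei the 51 UMIs came from Gbp7 with 17, Gbp6 with 10, Gbp2 with 9, Gbp3 and Gbp5 with 6 each, and Gbp4, Gbp8 and Gbp9 with 1 each. COP-like nuclei numbered 2 in this library and were not compared. After thinning, 11.1% of immune-like nuclei [7.68, 15.4], 2.58% of astrocyte-like, 0.166% of neuron-like and 0.142% of oligodendrocyte-like nuclei of Foxr2 alone had a UMI of a member. This left out 144 immune-like, 914 oligodendrocyte-like, 17 neuron-like and 1 astrocyte-like nuclei as too shallow. No nucleus of a named class had 4 members, which allows a share of up to 0.703% in astrocyte-like and 1.08% in immune-like nuclei.

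Set against Foxr2 alone, each member that passed the filter was higher in every class compared. A gene was called where it differed at least 2-fold and had at least 10 CPM in 1 library, a filter that the members passed through Foxr2 p53LOF in nearly every case, so that their number past it supports nothing. In astrocyte-like nuclei all 8 passed the filter and were past 2-fold higher, as were 23.4% of all genes tested, with 28.5% past 2-fold lower. The log2 ratio of the sum was 6.97 [6.57, 7.39] in astrocyte-like nuclei, where the median over all genes tested was 0.01. Gbp2 differed by 7.59, Gbp6 by 6.49, Gbp3 by 6.31, Gbp5 by 6.15 and Gbp7 by 5.09 [4.41, 5.87] on the log2 scale. Gbp4, Gbp8 and Gbp9 each rested on 1 UMI in Foxr2 alone, with log2 ratios of 10.23 [7.75, 15.53], 9.12 [6.65, 14.43] and 8.97 [6.49, 14.27]. The distance was smallest for Gbp7.

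In immune-like nuclei all 8 passed the filter and were past 2-fold higher, where 18.2% of all genes tested were and 22.3% were past 2-fold lower. The ratio of the sum was 3.60 [3.24, 3.98] on the log2 scale, and its counting interval did not overlap that of astrocyte-like nuclei. That is no test of a difference between the classes. Under the other settings tried, the immune-like ratio lay between 3.12 and 5.22. Gbp7 differed by 1.07 [0.64, 1.54], Gbp9 by 2.50 [1.62, 3.57] and Gbp8 by 4.50 [2.95, 6.78]. Gbp2 differed by 6.63 [4.77, 9.68], Gbp4 by 6.88 [4.40, 12.19] and Gbp5 by 5.97 [3.48, 11.27], on 1 or 2 UMIs each in Foxr2 alone. Gbp3 and Gbp6, with no UMI in Foxr2 alone, were at least 23.9-fold and at least 26.9-fold higher. The immune-like class was held mostly by clusters 4 and 8 in Foxr2 p53LOF and by cluster 11 in Foxr2 alone. Between these, the summed microglia markers stood at 2040 and 3938 CPM, the macrophage markers at 423 and 925 CPM, and Ptprc at 1295 and 582 CPM. Whether that difference in makeup plays a part in the ratio was not tested.

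In oligodendrocyte-like nuclei all 8 passed the filter and were past 2-fold higher, beside 13.3% of all genes tested higher and 20.6% lower, and the sum differed by 9.57 [8.34, 11.19] on the log2 scale, on 5 UMIs in Foxr2 alone. Gbp2 was at least 331-fold, Gbp3 at least 239.9-fold, Gbp4 at least 189-fold, Gbp9 at least 83.0-fold and Gbp8 at least 26.4-fold higher, as none of them had a UMI in Foxr2 alone. In neuron-like nuclei 4 members passed the filter, all past 2-fold higher, beside 13.6% of all genes tested higher and 19% lower, and the sum differed by 6.82 [6.40, 7.29]. Gbp7 in neuron-like nuclei differed by 4.72. In OPC-like nuclei 5 members passed and were past 2-fold higher, beside 10.6% of all genes tested higher and 25.7% lower, with Gbp2 at least 31.3-fold, Gbp3 at least 11.5-fold and Gbp4 at least 5.77-fold higher. Most of these classes too were held by different clusters in the 2 libraries, cluster 3 against cluster 0 for oligodendrocyte-like, cluster 6 against cluster 10 for astrocyte-like and clusters 2 and 17 against clusters 1, 7, 9, 12 and 13 for neuron-like nuclei, while OPC-like nuclei of both lay in cluster 14. In astrocyte-like nuclei, the summed astrocyte markers stood at 3335 CPM with p53 loss of function against 12710 without, and the OPC markers at 4998 against 1229 CPM. The summed immune markers there stood at 115 and 5.26 CPM, with 3 of 8 at 0 in Foxr2 alone. Their part in the members' ratios was not tested.

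The genes around the members were read to see how far the difference reached along the chromosomes. Within 500 kb of the chromosome 3 cluster, 5 of 10 other genes passed the filter in astrocyte-like nuclei, 1 of them at least 2-fold higher and 1 lower. Their median log2 library ratio was 0.20, with a range from -1.68 to 1.16. Around the chromosome 5 cluster, 4 of 8 passed, all 4 at least 2-fold higher, with a median of 1.67 and a range from 1.40 to 2.27. Of all genes tested in astrocyte-like nuclei, 23.4% were at least 2-fold higher and 28.5% lower. The members' ratios, from 5.09 to 10.23, lay above those of all these neighbours.

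Other genes of interferon and GBP biology were read as lists, against 23.4% of all genes tested at least 2-fold higher and 28.5% lower in astrocyte-like nuclei. A list gene that is low in Foxr2 alone can pass the same filter only through Foxr2 p53LOF. The counts of higher list genes therefore support nothing by themselves. In astrocyte-like nuclei, all 8 immunity-related GTPase genes that passed the filter were at least 2-fold higher in Foxr2 p53LOF (median log2 ratio 8.15), as were all 14 type I interferon effectors (median 4.63) and 8 of 9 class I antigen presentation genes (median 2.90). Of 19 receptors and regulators, 14 were higher and 1 lower. The lower one was the receptor chain Ifngr1, at 9.65 against 31.6 CPM, while the transcription factor Irf1 was higher, at 234 against 3.95 CPM. The inflammasome list was split, with 2 higher and 2 lower of 4, and Casp4, which senses bacterial lipopolysaccharide, at 75.0 CPM, at least 38.0-fold higher. None of the 9 autophagy conjugation genes was 2-fold higher and 4 were lower (median -0.74). In immune-like nuclei 7 of 8 immunity-related GTPases and all 14 type I effectors were higher, and so were 9 of 19 regulators and 3 of 9 class I genes, against 18.2% of all genes tested higher and 22.3% lower. In oligodendrocyte-like nuclei 7 of 7 immunity-related GTPases, 12 of 13 type I effectors, 8 of 9 class I genes and 9 of 14 regulators were higher, against 13.3% of all genes tested higher and 20.6% lower. Ifng itself, the ligand, gave 37 UMIs in all Foxr2 p53LOF nuclei and none in Foxr2 alone. Of these, 19 lay in the cluster with T and NK markers and none in astrocyte-like nuclei.

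Open chromatin at the members' starts was read as transposition counts in peaks within 1 kb of an annotated start. The Foxr2 p53LOF list of 112924 peaks held such a peak for all 8 members. The Foxr2 alone replicate 1 list of 135201 peaks held one for Gbp3, Gbp6, Gbp7 and Gbp9 only. The shorter Foxr2 alone replicate 2 list of 99112 peaks held one for all 8 members, so the other 4 members lacked a peak in 1 of the 2 Foxr2 alone lists. Of all annotated genes, 58.9%, 57.9% and 56.1% had a peak in these lists. The printed windows of Gbp2, Gbp3, Gbp5 and Gbp7 lay inside Foxr2 p53LOF peaks, at chr3:142620272-142620861, chr3:142559584-142560212, chr3:142496576-142497047 and chr3:142529941-142530772. Gbp4, Gbp8 and Gbp9 share a peak at chr5:105139178-105140081, which holds a start of each, and that peak cannot be split between them.

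In Foxr2 p53LOF the 12 member peaks together took 249 of 1000000 transposition counts (CPM of open chromatin) in astrocyte-like, 188 in COP-like, 188 in immune-like, 137 in oligodendrocyte-like, 111 in OPC-like and 50.9 CPM [46.2, 55.9] in neuron-like nuclei. The order of these values matched that of the RNA apart from the tie of COP-like and immune-like nuclei, over a narrower range. The OPC-like value came from 93 nuclei, and the order was not tested. The Gbp7 peak took 37.0 CPM in astrocyte-like and 14.2 in neuron-like nuclei. The Gbp9 inner peak, at chr5:105110031-105110898, took 30.02 CPM in astrocyte-like and 2.22 in neuron-like nuclei. Neuron-like nuclei thus lay closer to astrocyte-like nuclei at Gbp7 than at Gbp9. The inner start of Gbp8 was the least open, with 2.37 CPM in astrocyte-like nuclei. Of the 1095 astrocyte-like nuclei, 711 had both RNA and a peak count of a member, 359 had RNA only, 6 had a peak count only and 19 had neither.

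Only the 4 members with a peak in both lists could be compared between libraries for open chromatin. Peaks were called in each library by itself, so the regions overlap but differ in their bounds, with Gbp3 at chr3:142560339-142561074 in Foxr2 p53LOF and chr3:142560291-142561159 in Foxr2 alone, and Gbp9 at chr5:105110031-105110898 and chr5:105110052-105110877. In astrocyte-like nuclei the Gbp9 inner peak took 30.02 CPM in Foxr2 p53LOF and 0.554 in Foxr2 alone (log2 ratio 5.76 [3.26, 11.07], on 2 counts in Foxr2 alone). The Gbp7 peak there took 37.0 and 7.48 CPM (2.26), the Gbp3 peak, downstream of the printed window, 42.9 and 21.9 (0.95) and the Gbp6 peak 27.9 and 16.1 (0.80), beside 10.8% of 12794 paired promoter peaks at least 2-fold higher. These 4 members were the ones with a called peak in Foxr2 alone replicate 1, and their chromatin ratios are not a sample of the family. In immune-like nuclei the Gbp9 inner peak took 36.9 and 43.3 CPM, a log2 ratio of -0.24 [-0.64, 0.17], and the Gbp3 peak 26.5 and 25.1 (0.08 [-0.43, 0.62]), beside 4.12% of 11010 paired peaks past 2-fold higher. The Gbp7 peak there took 26.2 and 16.9 (0.61 [0.01, 1.26]) and the Gbp6 peak 15.5 and 3.97 (1.96). At Gbp9 and Gbp3 the intervals of the immune-like chromatin ratios included 0, over regions of unlike bounds. In oligodendrocyte-like nuclei the ratios were 6.06 [3.45, 11.42] at Gbp9, on 2 counts in Foxr2 alone, 5.47 at Gbp7, 3.62 at Gbp6 and 2.78 at Gbp3, beside 2.87% of 11134 paired peaks past 2-fold higher.

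**Figure D4:**
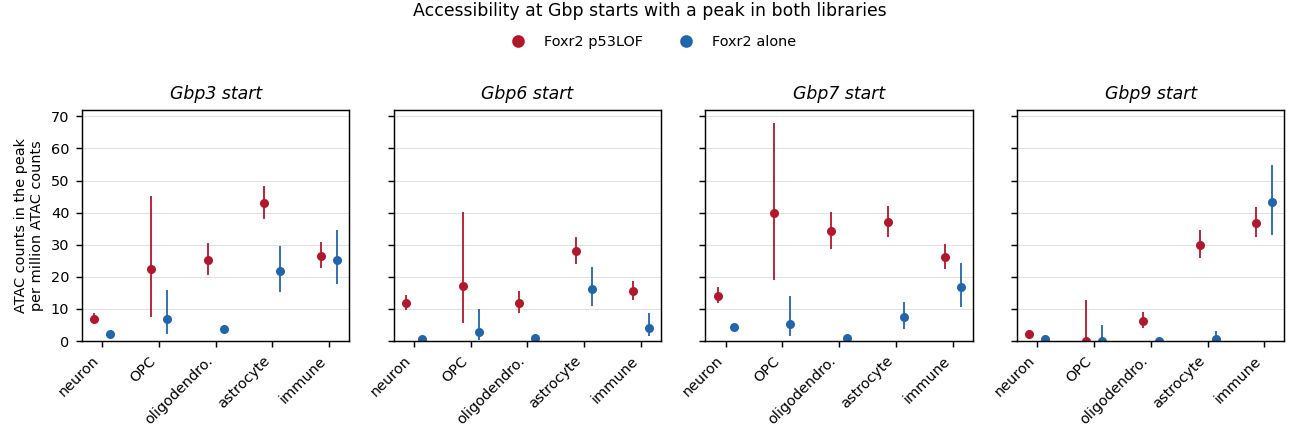
Transposition counts at the starts of the 4 members with a peak in both libraries, in CPM by cell class, with 95% counting intervals. The Gbp7 peak takes 37.0 CPM in astrocyte-like nuclei of Foxr2 p53LOF and 7.48 in those of Foxr2 alone, and the Gbp9 inner peak takes 43.3 CPM in immune-like nuclei of Foxr2 alone.

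Vector-positive nuclei were those with at least 1 transposition count in a peak on the Akaluc and GFP vector sequence. The Foxr2 vector also carried GFP, and these counts were not split between the vectors. The Foxr2 p53LOF list held 2 such peaks and the Foxr2 alone list none, so the comparison could be made in Foxr2 p53LOF only. Among its glia-like nuclei, 695 were vector-positive and 3306 were not (17.4% positive). The summed members stood at 3125 CPM in vector-positive and 2433 CPM in vector-negative glia-like nuclei, a log2 ratio of 0.36 [0.34, 0.38]. No member was past 2-fold, beside 0.204% of all genes tested past 2-fold higher and 3.08% lower, and the median over all genes was 0.08. The members' log2 ratios were 0.43 for Gbp2, 0.16 for Gbp3, 0.42 for Gbp4, 0.41 for Gbp5, 0.32 for Gbp6, 0.23 for Gbp7, 0.54 for Gbp8 and 0.21 for Gbp9. Of the vector-negative glia-like nuclei 45.8% were oligodendrocyte-like, against 1.58% of the vector-positive ones, and the median depths were 3618.5 and 8711 UMIs. With the oligodendrocyte-like class left out, the ratio was 0.15. With nuclei divided by GFP RNA it was 1.44, on 1902 nuclei with at least 2 GFP UMIs and 1289 with none, of which 75.4% were oligodendrocyte-like.

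Within the astrocyte-like, COP-like and oligodendrocyte-like classes the 2 kinds of nuclei were closer, while the immune-like class is given last. Vector-positive astrocyte-like nuclei had 4480 CPM (336 nuclei) and vector-negative ones 4052 CPM (759 nuclei), a log2 ratio of 0.14 [0.12, 0.17], with no member past 2-fold beside 0.16% of all genes tested higher and 0.24% lower. Member ratios there ran from -0.04 for Gbp9 and 0.06 for Gbp6 to 0.21 for Gbp5 and 0.22 for Gbp8. In COP-like nuclei the sums were 1928 CPM (346 nuclei) and 1897 CPM (942 nuclei), a ratio of 0.02 [-0.02, 0.06], with no member past 2-fold beside 0.277% of all genes tested higher and 0.386% lower. Gbp2 differed by 0.18 and Gbp5 by -0.33 in COP-like nuclei, where Gbp5 stood at 66.6 CPM in vector-positive and 84.0 CPM in vector-negative nuclei. The other 6 members lay between -0.16 and 0.02. Astrocyte-like and COP-like nuclei without a vector count thus also carried high member RNA. These nuclei were shallower in open chromatin than the vector-positive ones. Their median transposition counts were 8874 against 13226 in astrocyte-like and 7704 against 16094.5 in COP-like nuclei. Whether they lack the vector was not tested. Oligodendrocyte-like nuclei held 11 vector-positive nuclei, with 1091 CPM against 963 CPM (0.18 [-0.23, 0.56]), where 23.6% of all genes tested were past 2-fold higher and 23.8% lower. Of the 8 members there, 1 was past 2-fold higher and 1 lower. These were Gbp8, on 3 UMIs in the vector-positive nuclei, and Gbp5, with no UMI in them.

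GFP RNA was common in vector-negative nuclei too. At least 2 GFP UMIs were found in 81.8% of vector-positive and 75.0% of vector-negative astrocyte-like nuclei, and in 80.1% and 65.5% of COP-like nuclei. In vector-negative nuclei of the oligodendrocyte-like, immune-like and neuron-like classes the shares were 9.78%, 17.8% and 19.4%. With nuclei divided by GFP RNA instead, at least 2 UMIs against none, the members' sum stood at 4448 CPM in 844 and 2820 CPM in 86 astrocyte-like nuclei, a log2 ratio of 0.66 [0.58, 0.73]. By the same division it stood at 2054 CPM in 894 and 995 CPM in 185 COP-like nuclei, a ratio of 1.05. Division by GFP also divides by depth, with medians of 8618.5 and 5872 UMIs in astrocyte-like and 9326 and 4000 UMIs in COP-like nuclei, and its part was not tested. Division by both measures, positive for both against neither, gave 4483 CPM in 315 and 2255 CPM in 65 astrocyte-like nuclei (log2 ratio 0.99) and 1982 CPM in 312 and 1005 CPM in 151 COP-like nuclei (0.98).

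**Figure D5:**
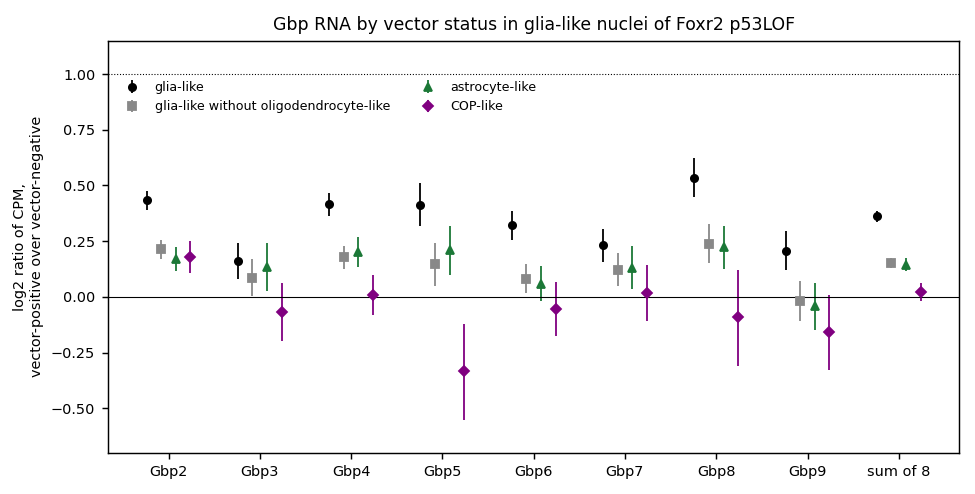
Log2 ratio of vector-positive over vector-negative nuclei for each member and their sum in glia-like nuclei, those without the oligodendrocyte-like class, astrocyte-like and COP-like nuclei of Foxr2 p53LOF, with 95% counting intervals and a dotted line at 2-fold. The sum lies at 0.36 in glia-like, 0.14 in astrocyte-like and 0.02 in COP-like nuclei, and Gbp5 lies on opposite sides of zero in the last 2.

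Per nucleus thinned to 1000 UMIs, a member was found in 74.0% of vector-positive glia-like nuclei [70.6, 77.3] and 58.0% of vector-negative ones [56.2, 59.7]. The shares were 87.5% and 78.1% in astrocyte-like and 61.0% and 63.1% in COP-like nuclei, and 46.5% in vector-negative oligodendrocyte-like nuclei. The COP-like intervals overlapped, [55.6, 66.3] and [59.8, 66.4], and without thinning the order was the other way, 95.4% and 93.2%. Member peaks took 214 CPM in vector-positive and 187 in vector-negative glia-like nuclei (0.19 [0.09, 0.29]), beside 0.188% of 13267 promoter peaks past 2-fold higher. The ratio was -0.00 [-0.15, 0.15] in astrocyte-like and -0.01 in COP-like nuclei.

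By the vector count, which sets glia-like groups of unlike makeup against each other as given for the members, the other lists were read against the same 0.204% of all genes tested past 2-fold higher and 3.08% lower. None of the 19 regulators that passed the filter was past 2-fold in glia-like nuclei (median 0.17), the largest being Ciita, the master activator of class II genes (0.34), Irf1 (0.34), the receptor chain Ifngr2 (0.30) and Irf8 (0.27). None of the 7 immunity-related GTPases (median 0.20, led by Ifi47 at 0.34 and Gm4951 at 0.28), the 14 type I effectors (median 0.15, led by Ifi44 at 0.33) and the 9 class I genes (median 0.11, led by Psmb9 at 0.29) was past 2-fold. Of 4 inflammasome genes, Aim2, a sensor of cytosolic DNA, was lower in vector-positive nuclei at 14.4 against 34.0 CPM (-1.24), and Casp1 stood at 0.75. The 9 autophagy genes had a median of -0.02, from -0.27 for Map1lc3b to 0.16 for Atg16l1.

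In the immune-like class 39 nuclei were vector-positive, with members at 2332 CPM against 1260.2 CPM in the other 1768 nuclei (0.89 [0.79, 0.98]). Those 39 nuclei had a median of 9819 UMIs against 2770.5, summed immune markers of 3708 against 6874 CPM and OPC markers of 1709 against 669 CPM. Whether they are mixed with glial nuclei was not tested. Without them the immune-like library ratio of the members was 3.53 on the log2 scale, against 3.60 with them.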

How the data were processed

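Nuclei of 3 mouse brain libraries were profiled by 10x Multiome, and the authors processed them with Cell Ranger ARC 2.0.0 on mm10 with added vector sequences, without pooling libraries. The deposited matrices hold counts per nucleus, as raw UMIs of genes and raw transposition events in peaks. Foxr2 alone replicate 2 entered with its peak list only.

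Nuclei with at least 400 genes, at least 400 fragments in peaks and at most 5% mitochondrial UMIs passed. Nuclei above upper limits on genes, UMIs and fragments, set for each library, were left out, so deep nuclei were removed as well. Scrublet doublets (4.05% of Foxr2 p53LOF and 6.10% of Foxr2 alone nuclei that passed) were removed. Before filtering, 10379 Foxr2 p53LOF and 10096 Foxr2 alone barcodes held 96929539 and 59719847 UMIs. Kept were 8359 and 8316 nuclei with 60006272 and 39605317 UMIs. After log transformation of UMIs scaled to a total of 10000, 2000 variable genes gave 30 components, and clusters came from Leiden at resolution 0.5 with 20 neighbours and seed 100, over both libraries together (scanpy 1.11.5, leidenalg 0.10.2, numpy 2.4.6, scipy 1.17.1, pandas 2.3.3, Python 3.11.15). Clusters were named from marker lists. UMIs were summed per class and library. CPM has exact Poisson intervals, ratios exact conditional binomial intervals, and shares Clopper-Pearson intervals, all at 95%. Open chromatin intervals use counts divided by 2, as a fragment gives 2 events. A fold against 0 UMIs is set against 3 UMIs in the group. Genes with at least 10 CPM in 1 group were compared and called at 2-fold. No test was made, since 1 library of each genotype entered with counts. The ratio method was run on simulated Poisson counts. These hold no variation between nuclei or libraries, so the run cannot check the intervals against either. Alternatives changed filters, doublets, resolution, scaling, thinning, the peak window and the definition of vector-positive.

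The members and lists were chosen with earlier results of these data known. Named are all members, the other Gbp genes, up to 4 genes of each list with the largest vector ratio, and the 10 genes most like the summed members plus the nearest gene to each member, of which that for Gbp9 is not reported here. List genes named for the library comparison (Irf1, Ifngr1, Casp4, Ifng) were chosen after their values were seen.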

Additional observations from a re-analysis of the deposited data

Results flagged for a closer look

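The peak list of Foxr2 alone replicate 2, whose counts enter no comparison, held 10 peaks at starts of Gbp genes, and they covered all 8 members. The list of Foxr2 alone replicate 1 held 4 such peaks, for Gbp3, Gbp6, Gbp7 and Gbp9, although it is the longer list (135201 against 99112 peaks). Of all annotated genes, 57.9% had a peak in the replicate 1 list and 56.1% in the replicate 2 list, so 4 of 8 members lies near that share. A peak in a list carries no cell class, and RNA of replicate 2 was not analysed here.

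Gbp5 differed in opposite directions by the vector count in 2 classes of Foxr2 p53LOF. Its vector-positive over vector-negative log2 ratio was 0.21 [0.10, 0.32] in astrocyte-like nuclei and -0.33 [-0.55, -0.12] in COP-like nuclei. Of the vector-negative nuclei in these classes, 75.0% and 65.5% had at least 2 GFP UMIs, and whether they lack the vector was not tested. The difference was not tested, since both ratios come from 1 library.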

How the results depend on the processing

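The sums compared between libraries and by vector kept their direction under the settings tried. Some orders of shares turned without thinning, COP-like vector-positive against vector-negative nuclei (61.0% and 63.1% thinned, 95.4% and 93.2% not) and OPC-like against neuron-like nuclei (29.0% and 13.8% thinned, 66.7% and 74.8% not). Of 72 glia-like vector ratios of single members over all settings 71 were above 0, the exception being Gbp9 without oligodendrocyte-like nuclei (-0.02, against 0.21). Of the alternatives to the reported comparisons 15 stayed within their error and 22 moved, and of those for single members 72 and 54 did. The astrocyte-like sum of 4196 CPM became 5039 CPM with at least 1000 genes and fragments, 317 CPM with doublets kept and 3967 CPM at resolution 1, settings chosen after seeing the data. The immune-like library ratio of 3.60 became 4.70 with at least 1000 genes and fragments, 5.22 by UMIs per nucleus and, in settings chosen after seeing the data, 3.21 without a vector-rich immune-like cluster and 3.12 for cluster 8 over cluster 11. The glia-like vector ratio of 0.36 became 0.28 with median-ratio scaling, 1.21 by UMIs per nucleus, 1.44 and 1.61 by the 2 definitions that use GFP, and 0.15 without oligodendrocyte-like nuclei. The share of 74.0% became 63.6% with doublets kept, 78.0% with the vector count and GFP together, 84.7% thinned to 2000 UMIs and 96.8% without thinning. The promoter ratio of 0.19 became 0.58 and 0.61 by the GFP definitions. Genes past 2-fold higher numbered 2050 in immune-like nuclei, 3603 without a filter and 1101 at 4-fold, and 21, 51 and 1 with the vector in glia-like nuclei. The causes were not tested, beyond the naming of clusters with doublets kept. No paired analysis was possible because 1 library of each genotype entered with counts. Members with 1 to 3 UMIs in Foxr2 alone carry ratios that depth leaves wide.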

Other observations

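Gbp10, a family gene on chromosome 5 that was not among the members, stood in Foxr2 p53LOF at 162 CPM in astrocyte-like, 23.3 in COP-like, 19.8 in immune-like, 6.87 in oligodendrocyte-like, 3.15 in OPC-like and 2.72 in neuron-like nuclei. It had no UMI in astrocyte-like or immune-like nuclei of Foxr2 alone. Gbp10 shares 31.2% of the 90-base windows of its gene span with other Gbp genes, so its count is uncertain. Gbp2b, which lies beside Gbp2, stayed at 0.796 CPM in astrocyte-like and 2.40 CPM in immune-like nuclei of Foxr2 p53LOF.

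At a finer clustering, 161 immune-like nuclei of Foxr2 p53LOF, of which 13.7% were vector-positive, held the members at 2541 CPM and 26.9 UMIs per nucleus. A cluster of 25 nuclei with endothelial markers held them at 2051 CPM, one of 51 nuclei with fibroblast markers at 1568 CPM and one of 119 nuclei with T and NK markers at 1141 CPM. This clustering was chosen after seeing the data.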
